A study of Mus musculus with 3 samples.

Results

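The genes described here are 10 AP-1 and immediate early genes, chosen by name: Fos, Fosb, Fosl1, Fosl2, Jun, Junb, Jund, Egr1, Ier3 and Atf3. All 10 were found, each with exactly 1 probe set, among 19938 named genes on the array. They were read in 3 lines of cultured FSP1-positive fibroblasts from the mouse forestomach, with 1 array per line. The line labelled TGFBR2/SMAD4 cKO carried conditional knockouts of Tgfbr2, the type II TGF-beta receptor gene, and of Smad4, the shared partner of the receptor-activated SMAD proteins, and came from normal forestomach. The line labelled TGFBR2cKO carried the Tgfbr2 knockout alone and was derived from tumour tissue, a forestomach squamous cell carcinoma. The wild-type control line came from normal forestomach. Donor mice of all lines are described as mixed C57BL6 and BALBc of either sex, and which promoter drove the Cre recombinase is not given in the sources used here. All cultures were at passages 4 to 6 and were harvested below confluency in medium with 10% fetal bovine serum, without a separate serum or growth factor stimulus. Each genotype is thus 1 line and 1 array, so no difference below has a replicate check and no p-value is given.

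AP-1 is a dimeric transcription factor made of one JUN protein with one FOS protein, a second JUN or an ATF protein, joined through leucine zippers and bound to DNA through adjoining basic regions. Most of its genes are immediate early genes, which serum, growth factors and stress switch on within minutes through MAP kinases acting on factors already present, and whose mRNAs decay quickly. JUN and FOS proteins bind next to SMAD3 and SMAD4 at many TGF-beta response genes, and Junb and Atf3 are themselves known to respond to TGF-beta. In fibroblasts AP-1 is best known for driving matrix metalloproteinases, urokinase and cytokines such as interleukin 6.

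The stretches of DNA just upstream of 5 of these genes show what the letters around their start sites look like. They were chosen to show Ier3 as the member with the largest difference between arrays, Fos and Jun as the AP-1 genes that were lower in the TGFBR2/SMAD4 cKO array, and Fosb and Jund as those with equal values in all 3 arrays. Each run holds the 250 bases before the RefSeq start in GRCm38.p6, 5′ to 3′ on the strand of the gene, with motif matches in capitals. Ier3 lies on the plus strand at chr17:35821463-35821712, Fos on the plus strand at chr12:85473640-85473889, Jun on the minus strand at chr4:95052223-95052472, Fosb on the minus strand at chr7:19310046-19310295 and Jund on the plus strand at chr8:70697489-70697738.
Ier3: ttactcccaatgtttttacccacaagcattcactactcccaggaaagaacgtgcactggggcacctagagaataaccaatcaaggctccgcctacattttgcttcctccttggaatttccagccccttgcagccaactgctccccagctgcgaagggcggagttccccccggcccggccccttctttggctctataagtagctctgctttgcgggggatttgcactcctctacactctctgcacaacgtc
Fos: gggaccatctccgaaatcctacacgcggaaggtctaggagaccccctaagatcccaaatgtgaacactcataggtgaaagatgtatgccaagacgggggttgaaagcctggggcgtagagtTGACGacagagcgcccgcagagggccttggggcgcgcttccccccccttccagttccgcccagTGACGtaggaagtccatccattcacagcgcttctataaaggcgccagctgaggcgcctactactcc
Jun: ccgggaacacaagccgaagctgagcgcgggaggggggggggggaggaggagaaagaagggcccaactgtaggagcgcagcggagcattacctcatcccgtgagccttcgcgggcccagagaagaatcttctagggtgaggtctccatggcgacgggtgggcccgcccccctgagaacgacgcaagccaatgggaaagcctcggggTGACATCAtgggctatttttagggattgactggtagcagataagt
Fosb: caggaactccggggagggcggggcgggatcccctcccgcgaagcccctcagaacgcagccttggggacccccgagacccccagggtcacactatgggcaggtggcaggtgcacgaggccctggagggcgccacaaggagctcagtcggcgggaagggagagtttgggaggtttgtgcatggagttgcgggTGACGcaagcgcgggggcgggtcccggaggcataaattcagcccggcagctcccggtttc
Jund: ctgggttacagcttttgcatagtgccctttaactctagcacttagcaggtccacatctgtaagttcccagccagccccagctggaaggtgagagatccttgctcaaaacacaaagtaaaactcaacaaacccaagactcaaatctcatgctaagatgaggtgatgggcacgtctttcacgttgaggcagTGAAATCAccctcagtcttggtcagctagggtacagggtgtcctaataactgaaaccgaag

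The promoters of 8 members were present in the sequence table used, without Fosl1 and Egr1, and the search covered 300 bases, from 250 before to 50 after the start, on both strands. The CRE core TGACG, the part of a cAMP response element that ATF and CREB proteins contact, was found in 4 of the 8, those of Fos, Fosb, Junb and Atf3, and in 20.8% of 32851 promoters of the same length. Counted to the first base of the match, Fos held it at 129 and 66 bases before the start, Fosb at 60, Junb at 106 and Atf3 at 7. The looser 8-base form TGANNTCA, added after the sequences had been read because it takes in the known ATF-type site of the Jun promoter, was found in Jun and Jund and in 14.1% of all promoters. It can overlap the CRE core, and did so in none of these genes. It lay 45 bases before the start in Jun, as TGACATCA, with another match inside the transcript, and 61 bases before the start in Jund. The AP-1 site TGANTCA, the SMAD element CAGAC and the CArG box bound by SRF were found in 0 of the 8 windows, against 7.81%, 49.6% and 1.63% of all promoters. Ier3, the member with the largest difference, had no match to any motif searched, and Fos and Fosb each held a CRE core. Any link between the motifs and the differences between arrays was not tested. A match says only that the letters are present, and a window without one says nothing about binding farther away.

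The labels were first set against the targeted and sex-linked genes. Tgfbr2 had log2 signals of 10.29 in the TGFBR2/SMAD4 cKO array, 10.25 in the TGFBR2cKO array and 10.25 in the wild-type array, and Smad4 had 11.04, 11.06 and 11.06 in the same order. These values summarise probes spread along each transcript and cannot separate deleted exons from the rest, so they do not check the knockouts. S100a4, which encodes FSP1, had signals of 12.71, 13.16 and 13.18, well above the median signal of 6.63 over all probe sets. Xist, the RNA that coats an inactive X chromosome, had signals of 9.44, 5.35 and 5.33, and the Y-linked gene Eif2s3y 5.01, 10.00 and 10.12. The TGFBR2/SMAD4 cKO line therefore differed from the other lines in sex pattern as well as genotype, and from the TGFBR2cKO line also in tissue of origin, and these cannot be told apart. Fibroblast markers were above the median signal in 12 of 12 cases in at least 1 array. Under 6.63 in every array were 6 of 10 epithelial, 5 of 8 leukocyte and 6 of 7 endothelial markers. Epcam, Cdh1, Ptprc and Pecam1, among these, lay between 5.23 and 5.79. The other markers were not under it in every array. Among them were Krt19 with signals of 6.93, 9.25 and 8.82 and Lyz2 with 7.75, 9.52 and 8.70 in the same order. The endothelial marker Vwf had 6.83 in each array. Of 7 smooth muscle markers only 1 was under 6.63 in every array, and their median signals were 11.12, 13.14 and 13.02 in the same order.

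**Figure D1:**
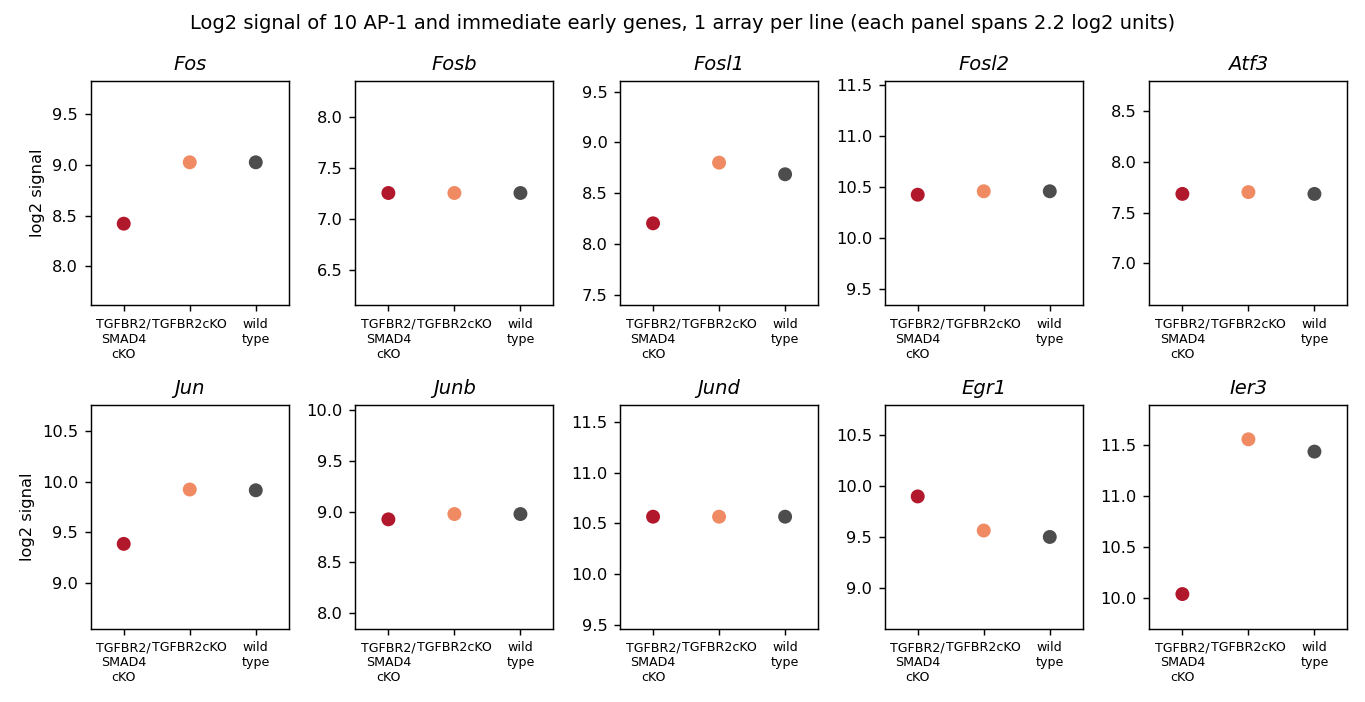
Log2 signal (vertical axis) of each of the 10 genes in the TGFBR2/SMAD4 cKO, TGFBR2cKO and wild-type arrays (points, 1 array each, no error bars). Each panel spans the same number of log2 units, but its position differs, since signals of different probe sets are not comparable. Ier3, Fos, Jun and Fosl1 sit lowest in the TGFBR2/SMAD4 cKO array, Egr1 sits highest there, and the other 5 genes are nearly level.

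In the TGFBR2/SMAD4 cKO array, Ier3 and 3 AP-1 genes, Fos, Jun and Fosl1, had lower signals than in either other array, while Egr1 had a higher one. Only Ier3 passed a 2-fold difference. Fosl2, Junb, Jund, Fosb and Atf3 differed little, Junb most among them with -0.05 on the log2 scale. Between the TGFBR2cKO and wild-type arrays the widest difference of a member was 0.12, that of Ier3. In bulk cultures like these, fewer cells of a type and less RNA per cell cannot be told apart.

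Among the FOS family, whose proteins need a JUN partner to bind DNA, Fos had log2 signals of 8.42 in the TGFBR2/SMAD4 cKO array, 9.02 in the TGFBR2cKO array and 9.02 in the wild-type array. The last 2 values were exactly equal, and the first was lower by 1.52-fold, a log2 difference of -0.60 to each. Fosl1 encodes FRA1, a FOS protein without the strong activation domain of FOS itself, whose gene is a classic target of AP-1. It had signals of 8.21, 8.80 and 8.69 in the same order. Its difference was -0.48 from wild type and -0.60 from the TGFBR2cKO array, or 1.40-fold and 1.51-fold lower. Fosl2, which encodes the related FRA2, had signals of 10.42, 10.46 and 10.46. Its difference of -0.03 to both other arrays was small beside that of Fos and Fosl1. Fosb had a signal of 7.26 in each of the 3 arrays, with no difference to any digit of the table.

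In the JUN family, which can pair with itself or with FOS and ATF proteins, the members also parted. Jun, the strongest activator of the family, had signals of 9.39 in the TGFBR2/SMAD4 cKO array, 9.92 in the TGFBR2cKO array and 9.91 in the wild-type array. It was thus lower in the TGFBR2/SMAD4 cKO array by 1.44-fold against wild type and by 1.45-fold against the TGFBR2cKO array, with log2 differences of -0.53 and -0.53. Junb, which often opposes JUN in growth control, had signals of 8.92, 8.97 and 8.97 and a difference of -0.05 to both. Jund, the member that is expressed most steadily in resting cells, had a signal of 10.57 in every array. Of the FOS and JUN genes, then, those with a visible difference were Fos, Fosl1 and Jun, and all 3 were lowest in the same array.

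Atf3, a stress-induced member of the ATF/CREB family that pairs with JUN proteins, had signals of 7.68 in the TGFBR2/SMAD4 cKO array, 7.70 in the TGFBR2cKO array and 7.68 in the wild-type array. The first and last were equal, and the middle one was higher by 0.02.

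The 2 members outside the AP-1 dimers went in opposite directions. Egr1, a zinc finger transcription factor that serum induces together with Fos, had signals of 9.90 in the TGFBR2/SMAD4 cKO array, 9.56 in the TGFBR2cKO array and 9.50 in the wild-type array. It was higher in the TGFBR2/SMAD4 cKO array by 0.40 against wild type and by 0.34 against the TGFBR2cKO array, which is 1.32-fold and 1.26-fold. Ier3, a stress-induced gene whose protein affects cell survival and ERK signaling, had signals of 10.04, 11.56 and 11.44 in the same order. Its TGFBR2/SMAD4 cKO signal was 2.64-fold lower than wild type and 2.87-fold lower than TGFBR2cKO, with log2 differences of -1.40 and -1.52.

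**Figure D2:**
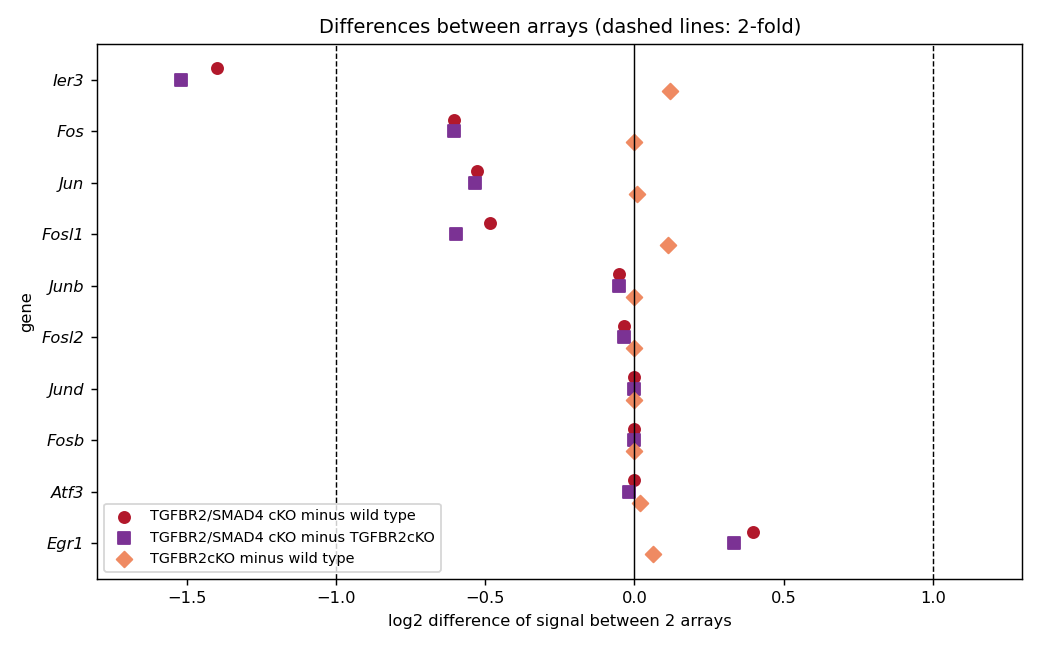
Log2 difference of signal (horizontal axis) of each gene (vertical axis) for the TGFBR2/SMAD4 cKO array less the wild-type array, the same array less the TGFBR2cKO array, and TGFBR2cKO less wild type (points, 1 value each, no error bars), with dashed lines at 2-fold. Ier3 at -1.40 and -1.52 is the only gene past a dashed line, Fos, Jun and Fosl1 lie between -0.48 and -0.60, and Egr1 lies at 0.40 and 0.34.

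Set beside all 11808 genes whose highest signal reached the median of 6.63, which all 10 members did, each member can be placed by the share of genes as far from 0 in the same direction. In TGFBR2/SMAD4 cKO minus wild type, 1 of 10 members was at least 2-fold lower and 0 were at least 2-fold higher, against 2.18% and 1.22% of all genes. Ier3 was among the 1.11% of genes that were as far below 0 or farther. The same share was 4.88% for Fos, 6.04% for Jun and 6.72% for Fosl1, and 5.73% of genes were as far above 0 as Egr1. Below 0 were 6 of 10 members, 1 was above and 3 were exactly equal, against 32.2%, 31.1% and 36.7% of all genes. The median difference of the members was -0.04, against 0 for all genes. The 10 genes were picked with earlier results of these arrays known, so these counts describe them and test nothing.

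In TGFBR2/SMAD4 cKO minus TGFBR2cKO, which uses the same TGFBR2/SMAD4 cKO array and is therefore no second measurement of it, 1 of 10 members was at least 2-fold lower, against 2.25% of all genes. None was at least 2-fold higher, against 1.32%. Here 7 members were below 0, 1 above and 2 equal, against 33.7%, 30.2% and 36.1% of all genes, and the median was again -0.04. The shares of genes as far below 0 were 0.932% for Ier3, 5.28% for Fos, 5.43% for Fosl1 and 6.44% for Jun. As far above 0 as Egr1 were 6.96%.

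In TGFBR2cKO minus wild type, 0 of 10 members differed 2-fold in either direction, against 0.0339% of all genes, 0.0254% on the higher side and 0.00847% on the lower. Those shares are 3 genes higher and 1 lower, which became 3 and 2 after cyclic loess normalization, 4 and 2 after quantile normalization and 2 and 0 with an offset of 32. Values were above 0 for 5 members, below 0 for 0 and equal for 5, against 25.8%, 19.0% and 55.1% of all genes. The largest were 0.12 for Ier3, 0.11 for Fosl1 and 0.06 for Egr1, and the shares of genes as far above 0 were 5.77%, 6.21% and 11.5%. This pair of arrays was close throughout, with an SD of 0.0951 over genes, against 0.39 for TGFBR2/SMAD4 cKO minus wild type. Tissue of origin, carcinoma or normal forestomach, differed between these lines along with genotype, and these cannot be told apart.

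**Figure D3:**
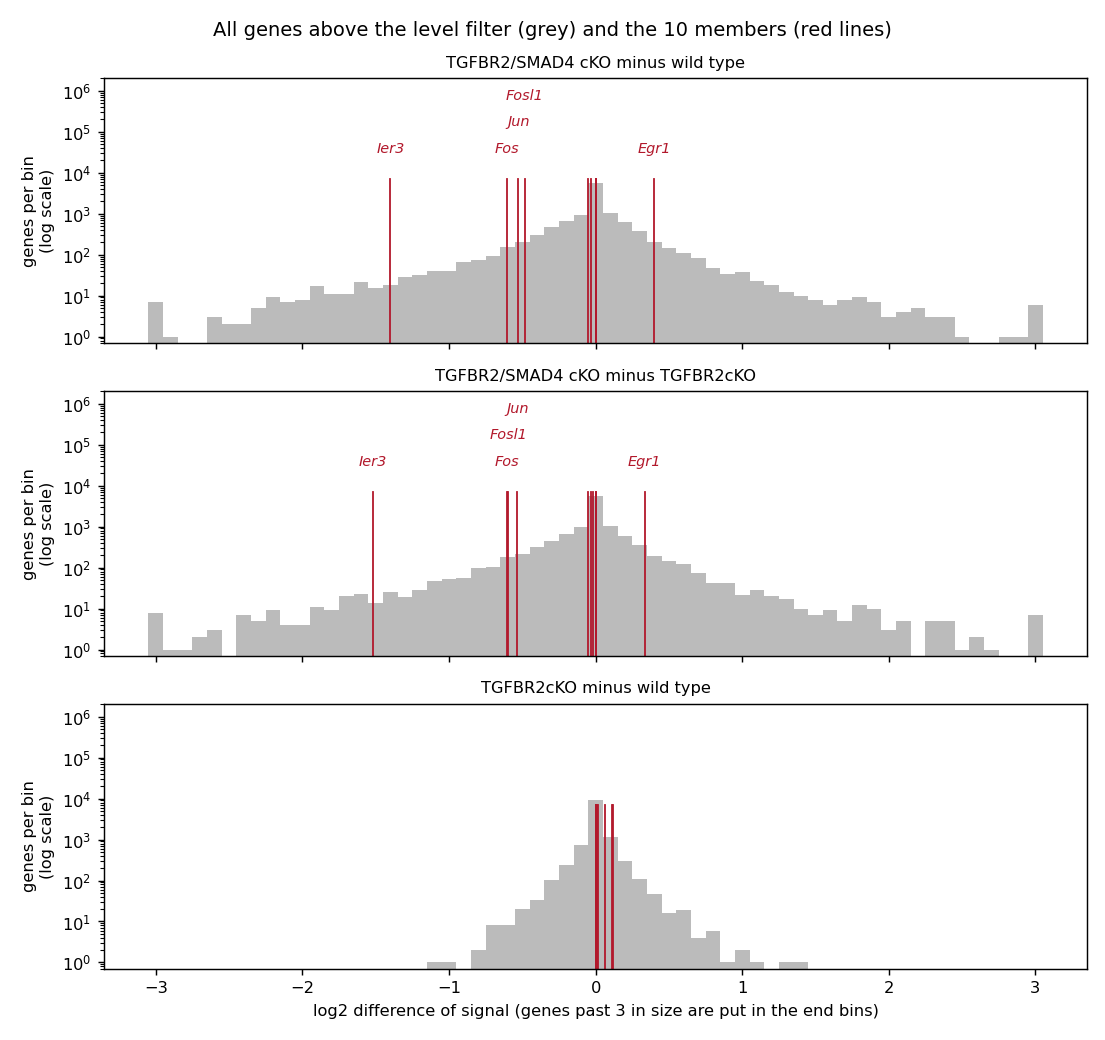
Number of genes (vertical axis, log scale) by log2 difference of signal (horizontal axis) for the 3 pairs of arrays, over 11808 genes, with a red line for each of the 10 members. Ier3 lies in the lower tail of the first 2 panels at -1.40 and -1.52, Fos, Jun and Fosl1 lie on the lower shoulder, and in the third panel every member is within 0.12 of 0.

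Exactly equal values shape how these differences read. At least 2 of the 3 values were equal to every digit in 6 of 10 members and in 62.6% of all genes, and all 3 were equal in 2 members, Fosb and Jund, and in 32.7% of all genes. An equal value is a property of the deposited table and does not show that the RNA was equally abundant. The 3 values of Jund were also exactly those of the probe set of Wwp1, a ubiquitin ligase gene, and 10902 of the 35556 probe sets shared all 3 values with another. The 4 members with 3 distinct values were Ier3, Jun, Fosl1 and Egr1. Their median was -0.50 in TGFBR2/SMAD4 cKO minus wild type and -0.57 in TGFBR2/SMAD4 cKO minus TGFBR2cKO, against -0.06 and -0.07 for the 4419 genes of that kind. These 4 were kept by a rule on the same values, so their medians only describe them. The median of all 10 members was -0.04 in both.

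Lists of genes around AP-1 and a list of proliferation genes were read in the same arrays. These lists were chosen with earlier results of these arrays known, and they are described by their counts. For these, the shares of all genes below 0, above 0 and equal were 32.2%, 31.1% and 36.7% in TGFBR2/SMAD4 cKO minus wild type, 33.7%, 30.2% and 36.1% against TGFBR2cKO, and 19.0%, 25.8% and 55.1% in TGFBR2cKO minus wild type, and the median of all genes was 0 in each. Of 45 other immediate early genes above the level filter, 23 were below 0, 10 above and 12 equal in TGFBR2/SMAD4 cKO minus wild type, with a median of -0.09. At least 2-fold different were 3 of the 45, against 3.4% of all genes. Errfi1, a feedback inhibitor of the EGF receptor, had signals of 10.33 in the TGFBR2/SMAD4 cKO array, 11.53 in the TGFBR2cKO array and 11.49 in the wild-type array, a difference of -1.16 from wild type. Ptgs2, the inducible cyclooxygenase gene, had 12.73, 13.76 and 13.80, a difference of -1.07. Zfp36l1, whose protein binds AU-rich elements and promotes mRNA decay, went the other way, with 10.64, 8.70 and 8.76 and a difference of 1.88. Against TGFBR2cKO the same 3 genes passed 2-fold, against 3.57% of all genes, and the median was -0.18. Between TGFBR2cKO and wild type 0 of 45 did, against 0.0339% of all genes, with a median of 0.

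The other genes for bZIP factors, which carry the same zipper and basic region as AP-1, were also read. None of 29 differed 2-fold in any comparison. The shares of all genes were 3.4% in TGFBR2/SMAD4 cKO minus wild type, 3.57% against TGFBR2cKO and 0.0339% in TGFBR2cKO minus wild type. With shares this low, a count of 0 says little about the list. In TGFBR2/SMAD4 cKO minus wild type 13 were above 0, 6 below and 10 equal. The widest were Maff, a small MAF gene, at 9.01, 10.00 and 9.98, a difference of -0.97, and Atf7, a relative of ATF2, at 10.09, 9.52 and 9.43, a difference of 0.66.

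Of the kinases and the SRF and ETS factors that act upstream of the immediate early genes, none of 29 differed 2-fold in any comparison. The shares of all genes were again 3.4%, 3.57% and 0.0339%, so this count also says little about the list. In TGFBR2/SMAD4 cKO minus wild type 13 were below 0 and 10 above, with a median of 0. Mapk8, which encodes the JUN kinase JNK1, had the widest difference below 0, with signals of 8.64 in the TGFBR2/SMAD4 cKO array, 9.23 in the TGFBR2cKO array and 9.26 in the wild-type array. Map3k5, the stress kinase gene known as ASK1, had 7.79, 7.31 and 7.31. Their differences from wild type were -0.62 and 0.48. Genes of MAP kinase feedback were below 0 in 11 of 18 cases and above in 5, with a median of -0.08. Of these 18, 0 were 2-fold different from wild type, against 3.4% of all genes. Dusp4, a nuclear MAP kinase phosphatase gene, came closest, with signals of 9.72, 10.79 and 10.69 and a difference of -0.98 from wild type. Its difference from TGFBR2cKO was -1.08, where it was the 1 of 18 past 2-fold, against 3.57% of all genes.

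Genes with known AP-1 control differed most among the lists around AP-1. In TGFBR2/SMAD4 cKO minus wild type, 6 of 24 were at least 2-fold lower and 1 was higher, against 2.18% and 1.22% of all genes, with 18 below 0, 5 above and a median of -0.60. The 6 were the interleukin 6 gene Il6 at -2.28, the urokinase gene Plau at -2.04, the stromelysin 2 gene Mmp10 at -1.54, the urokinase receptor gene Plaur at -1.29, Ptgs2 at -1.07 and the chromatin protein gene Hmga2 at -1.05. The 1 higher was Mmp12, the macrophage elastase gene, at 1.26. Mmp10 had a signal of 6.60 in the TGFBR2/SMAD4 cKO array, under 6.63, and passed the level filter only through the other arrays. Plau had signals of 8.81 in the TGFBR2/SMAD4 cKO array, 11.01 in the TGFBR2cKO array and 10.85 in the wild-type array, and Il6 had 6.89, 9.88 and 9.17. Not all genes of the list went this way: Mmp3, the stromelysin 1 gene, had 8.80, 9.35 and 8.04, a difference of 0.76 from wild type. Any link of these genes to the signals of Fos, Jun and Fosl1 was not tested. Against TGFBR2cKO, 7 of 24 were at least 2-fold lower, against 2.25% of all genes, the interleukin 11 gene Il11 at -1.36 among them. The cyclin D1 gene Ccnd1 was the 1 higher at 1.08, against 1.32% of all genes, and the median of the list was -0.63. Between TGFBR2cKO and wild type 18 of 24 were above 0 and 4 below, with a median of 0.13, and the stromelysin 1 gene Mmp3 and Mmp12 were 2-fold higher at 1.31 and 1.08, against 0.0254% of all genes. The call of Mmp12 ended with the offset of 32 and with the level filter at the 75th percentile, each of which left 1 gene. All of these genes are also controlled by other factors.

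Proliferation genes and markers of other cell types also differed between the arrays. In the TGFBR2/SMAD4 cKO array, proliferation genes were at least 2-fold lower than in wild type in 21 of 29 cases, against 2.18% of all genes. Their median was -1.49. Top2a, Cenpe, Kif11, Ttk and Bub1, among the 21, had signals of 5.81 to 6.54 in the TGFBR2/SMAD4 cKO array. That is under 6.63, so these genes passed the level filter only through the other arrays. Proliferation genes were at least 2-fold lower than in TGFBR2cKO in 18 of 29, against 2.25% of all genes. In TGFBR2cKO minus wild type 0 of 29 passed 2-fold, against 0.0339% of all genes, while 25 of 29 were below 0, against 19.0%. Mki67 had signals of 7.70 in the TGFBR2/SMAD4 cKO array, 9.34 in the TGFBR2cKO array and 9.65 in the wild-type array. Smooth muscle markers were at least 2-fold lower than in wild type in 4 of 6. These were Myh11 at -3.37, Actg2 at -2.85, Des at -2.06 and Cnn1 at -1.62, while Tagln at -0.36 and Acta2 at -0.20 differed less. Over all 7 genes measured, the median signals were 11.12 in the TGFBR2/SMAD4 cKO array, 13.14 in the TGFBR2cKO array and 13.02 in the wild-type array. The signals ranged from 5.74 to 14.46, from 5.98 to 14.70 and from 5.94 to 14.66 in the same order. Against TGFBR2cKO the smooth muscle markers at least 2-fold lower were also 4 of 6. The shares of all genes for these counts are again 2.18% and 2.25%. Mesothelial markers followed another pattern, with 3 of 5 at least 2-fold lower than wild type, against 2.18% of all genes, and a median of -1.14. Against TGFBR2cKO 2 of 5 were lower, against 2.25%, with a median of -0.07. In TGFBR2cKO minus wild type 1 of 5 was lower, against 0.00847%, with a median of -0.46. That 1 gene, Upk3b, had 7.65 in the TGFBR2/SMAD4 cKO array, 7.72 in the TGFBR2cKO array and 8.79 in the wild-type array. Upk1b had 6.21, 8.87 and 9.70 in the same order, a difference of -3.48 from wild type. It passed the level filter only through the TGFBR2cKO and wild-type arrays. The mesothelial signals ranged over 6 genes from 6.21 to 7.82, from 6.41 to 9.25 and from 6.44 to 9.70 in the same order. Fibroblast markers differed 2-fold from wild type in 4 of 12 cases, with Pdgfra at 1.40, Lum at 1.21 and Fap at 1.09 on the higher side and Thy1 at -2.36 on the lower, against 1.22% and 2.18% of all genes. Fap had a signal of 6.39 in the wild-type array, under 6.63, and passed the level filter only through the other arrays. Against TGFBR2cKO the fibroblast markers past 2-fold were Lum at 1.14 and Thy1 at -2.19, against 1.32% of all genes higher and 2.25% lower. Between TGFBR2cKO and wild type 0 of 12 were past 2-fold, against 0.0339% of all genes. Of 10 epithelial markers 6 were under 6.63 in every array, and Krt19, which is also in the mesothelial list, was the 1 that differed 2-fold, with 6.93, 9.25 and 8.82. It was lower by -1.89 than wild type and by -2.32 than TGFBR2cKO, as 1 of 4 above the level filter. The shares of all genes at least 2-fold lower were 2.18% and 2.25%. Of 8 leukocyte markers 5 were under 6.63 in every array, and Lyz2 had 7.75, 9.52 and 8.70. Lyz2 was the 1 of 3 above the level filter at least 2-fold lower than in TGFBR2cKO, at -1.77, against 2.25% of all genes. Cd68 had 6.76, 7.51 and 7.01 in the same order, and Csf1r had 6.81 in each array. The part of these groups, and of the sex pattern, in the differences of the members was not tested.

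**Figure D4:**
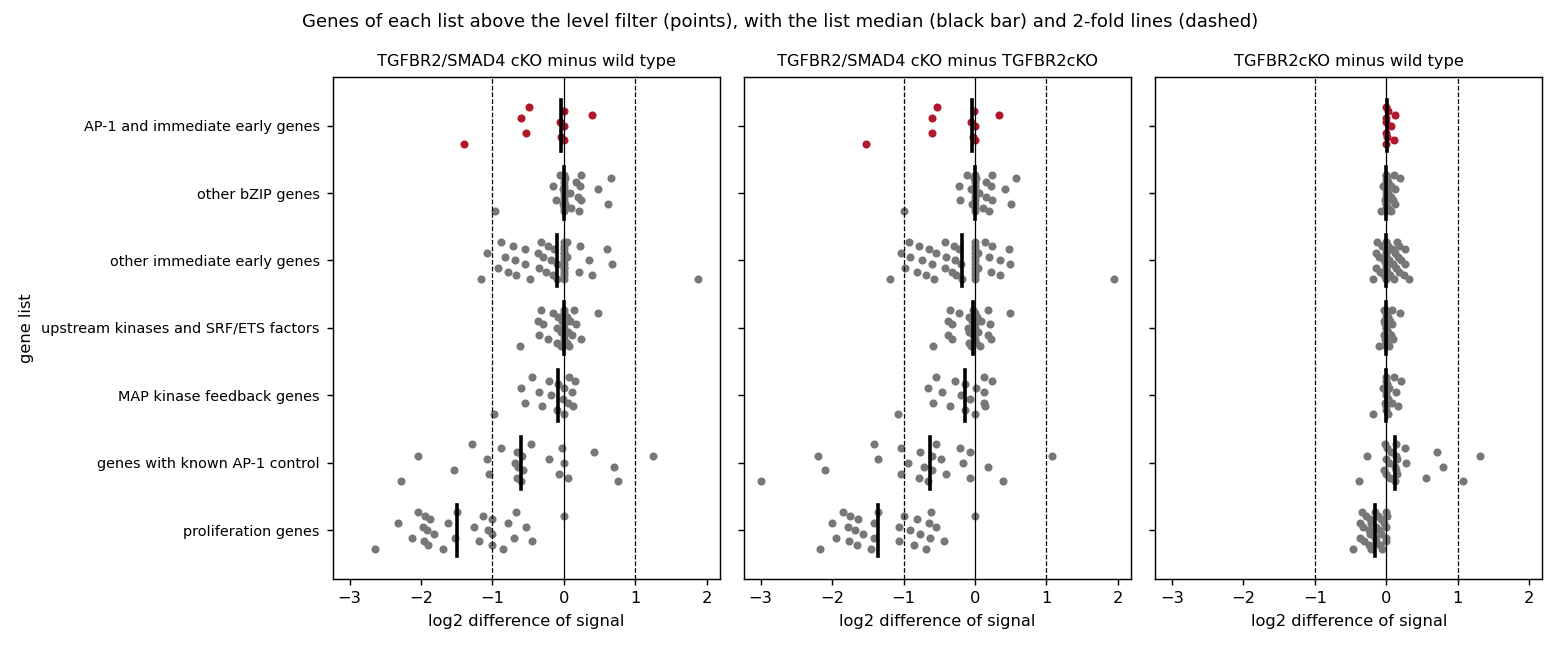
Log2 difference of signal (horizontal axis) of the genes of 7 lists (vertical axis, points are genes above the level filter, black bars are list medians) for the 3 pairs of arrays, with dashed lines at 2-fold. In the first 2 panels the medians of the genes with known AP-1 control, -0.60 and -0.63, and those of the proliferation genes lie to the left of 0. Of the 24 genes with known AP-1 control, 5 and 3 lie to the right of 0. The AP-1 and immediate early genes in red have medians of -0.04.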

How the data were processed

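Transcript levels were read with Affymetrix Gene 1.0 ST arrays for mouse, using 1 for each line and about 25 probes per transcript, per the labels' protocols. The table as deposited gave values for 35556 probe sets, read here as log2 signal from their range of 2.82 to 15.6. Which software the authors used, how background was corrected, the normalization and the build were not given in the sources used here. Array medians differed by at most 0.00412, so values were used as deposited. Precision is limited by the number of arrays.

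Gene names came from the platform annotation, which gave 21789 of the probe sets 1 gene symbol and 1621 several, while 12146 are unnamed here. Symbols were updated by gene identifier through a RefSeq table of GRCm38.p6, and probe sets of a gene were averaged. A gene passed the level filter if its highest signal reached the median of all values. With 1 array per group no test was possible, and a size rule of 2-fold was used. The counting step was tested on simulated data. Members, lists and rules were chosen with earlier results of these data known. Named genes were the 10 members and, from each list, those 2-fold different in any comparison or otherwise the 2 widest, and examples are given for the longer lists. Promoter sequences are from RefSeq. Alternatives were median centring, quantile and cyclic loess normalization, other probe set rules, an offset of 32, other level filters and fold rules, and only genes with 3 distinct values. Python 3.11.15, numpy 2.4.6, pandas 2.3.3, R 4.3.3 and limma 3.58.1 were used.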

Additional observations from a re-analysis of the deposited data

How the results depend on the processing

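No paired analysis was possible because each group has 1 array. With a 1.5-fold rule the number of members past it was 2 in TGFBR2/SMAD4 cKO minus wild type and 3 in TGFBR2/SMAD4 cKO minus TGFBR2cKO, and with a 3-fold rule it was 0 and 0, in place of 1 and 1. With only genes of 3 distinct values, which kept 4 members, the medians were -0.50 and -0.57 in place of -0.04 and -0.04. The other 25 medians moved by less than 0.1, and the other 29 member counts were the same as with the main setting. Some of these could not change. Each member has 1 probe set and all 10 pass the level filter, so both probe set rules and leaving out the filter left every member as it was. Median centring, quantile and cyclic loess normalization and the offset of 32 shifted no member's difference by more than 0.049. Over these alternatives Ier3 stayed between -1.40 and -1.37 in TGFBR2/SMAD4 cKO minus wild type, Fos between -0.60 and -0.56, Jun between -0.53 and -0.50, Fosl1 between -0.48 and -0.44 and Egr1 between 0.38 and 0.42. The differences of Fosl2, Junb, Jund, Fosb and Atf3, at the widest -0.05, are about the size of that shift. Among all genes, the counts at least 2-fold higher and lower, 144 and 257 in TGFBR2/SMAD4 cKO minus wild type, 156 and 266 against TGFBR2cKO and 3 and 1 in TGFBR2cKO minus wild type, became 396 and 601, 401 and 663, and 25 and 19 with the 1.5-fold rule, and 55 and 96, 61 and 100, and 0 and 0 with the 3-fold rule. The level filter at the 75th percentile, which kept 7 members, gave 147 lower in place of 257, 156 in place of 266 and 0 in place of 1. In TGFBR2cKO minus wild type the 1 lower became 2 with quantile or cyclic loess normalization and 0 with the offset. Of the counts for the lists around the members, 368 stayed within 1.5 times and 28 did not, these under the other fold rules, the higher filter or the offset. For the genes with known AP-1 control, 6 lower and 1 higher than wild type became 13 and 3 with the 1.5-fold rule and 2 and 0 with the 3-fold rule, and the 1 higher became 0 with the higher filter. The 2 higher in TGFBR2cKO minus wild type became 1 with the offset, 1 with the higher filter, 4 with the 1.5-fold rule and 0 with the 3-fold rule. For the proliferation genes, the 21 lower became 13 with the 3-fold rule and 13 with the higher filter.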
